A study of Mus musculus with 13 samples.

Results

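The comparison described here sets 3 libraries titled siEXOSC3 against 3 titled siScramble, all from DNA-RNA immunoprecipitation sequencing (DRIP-seq) of N2a cells. N2a is a mouse neuroblastoma line. These are 6 of the 13 samples in the series, chosen by title. Both groups received siRNA by transfection, which was directed against EXOSC3 in one and was a scramble control in the other, and both were untreated in the sense that the DNA was not digested with RNase H before the pull-down. Each title number stands for a separate biological replicate per the study's methods, so the p-values refer to spread between replicates of 1 cell line. The 6 peak lists merged into 64024 regions. Of these, 8994 were called in all 6 libraries, 415 in the 3 siEXOSC3 libraries alone and 404 in the 3 siScramble libraries alone.

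R-loops are structures in which RNA pairs with one strand of the DNA and displaces the other. They form behind RNA polymerase, often at G-rich starts and ends of genes, and RNase H removes the RNA strand of the hybrid. The RNA exosome degrades and trims many nuclear RNAs, among them short transcripts made upstream of promoters, and EXOSC3 is a cap subunit of this complex. In DRIP-seq the S9.6 antibody captures DNA-RNA hybrids from genomic DNA cut by 5 restriction enzymes, so the ends of a region often lie where an enzyme cut. The comparison asks where such hybrids differ once EXOSC3 has been depleted.

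Titles and peak names gave different treatments for these lists. Lists titled siEXOSC3 hold peaks named siScramble, and lists titled siScramble hold peaks named siDDX1. Groups are given by title throughout, and so are the siDDX1 and RNase H-digested libraries named below. Read by the peak names, every direction below would be that of siScramble relative to siDDX1, and the sources used here do not settle which reading is right. Peak lists measure no RNA, so the depletion of EXOSC3 could not be checked. The Exosc3 gene itself carried a promoter region (chr4:45354526-45355335) that was called in 2 of 3 siEXOSC3 libraries and 1 of 3 siScramble libraries. Of 20 neuroblastoma identity genes 16 had a region, as did 4 of 14 markers of other cell types and 12973 of all 33924 genes, and these shares were not tested against each other. A DRIP region is not a measure of expression.

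The siEXOSC3 lists held 27391, 30482 and 42571 peaks, and the siScramble lists 23882, 37512 and 42170. Totals did not separate the groups. Peak number, covered length, median width, median fold enrichment and the share over RNase H-resistant peaks gave exact permutation p-values between 0.4 and 1 (two-sided, n = 3 per group). The smallest p that 3 against 3 libraries allow is 0.1. Fold enrichment is the pileup at a peak's summit over the local background, each with 1 added, a linear ratio given by the peak caller. The genome-wide background was 0.55 to 0.71 reads, so the added 1 makes folds smaller than the plain ratio. Across the 8994 shared regions, log2 fold enrichment correlated at r = 0.781 to 0.841 between libraries of one group and at r = 0.745 to 0.780 between groups (Pearson, across regions, which are not independent replicates). The summits were shallow, with a median pileup of 14 reads per library in shared regions and 8 reads in regions called on one side only.

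Genomic position set the groups of one-sided regions apart. Promoters were the most frequent position of regions called only in siEXOSC3, and introns that of regions called only in siScramble. Without siEXOSC3 replicate 1, introns (34.6%) exceeded promoters (30.5%) among siEXOSC3-only regions as well. A promoter is taken here as any region within 1 kb of an annotated transcription start. Of the 415 siEXOSC3-only regions, which made up 0.648% of all merged regions, 180 (43.4%, 95% exact binomial interval 38.5 to 48.3%) were at promoters and 100 (24.1%) in introns. Of the 404 siScramble-only regions (0.631%), 45 (11.1%, interval 8.24 to 14.6%) were at promoters and 204 (50.5%) in introns. Over all merged regions, 24.5% were at promoters and 42.2% in introns, so one group lay above and the other below the general share. Both classes together made up 819 regions (1.28%). Among the 5875 regions called in any 3 of the 6 libraries, the promoter share was 24.1%. These intervals cover counting error only. In the individual peak lists a peak counted as a promoter peak only if its midpoint lay within 1 kb of a start. This rule is narrower than that for merged regions, so the shares are not on the same scale. By it the share was 26% ± 2.3 for siEXOSC3 and 22.9% ± 2.37 for siScramble (SD, n = 3, exact permutation p = 0.2), so the groups overlapped. Mean GC content of the peaks was 49.9% ± 0.413 and 48.7% ± 0.545, without overlap (SD, n = 3; exact permutation p = 0.1, adjusted p = 0.7 over 7 library measures).

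**Figure D1:**
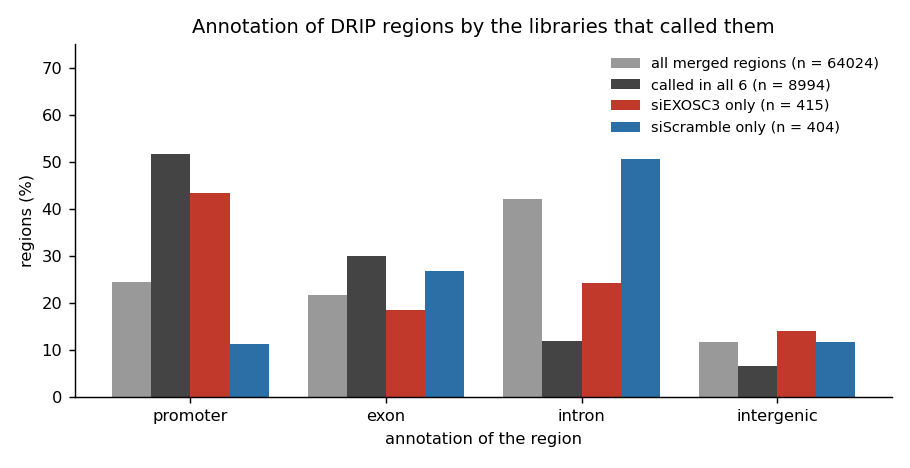
Share of regions (y axis, percent) at promoters, exons, introns and intergenic positions (x axis), for all merged regions, regions called in all 6 libraries and regions called on one side only. The siEXOSC3-only bars stand above those of all merged regions at promoters and the siScramble-only bars stand above them in introns.

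Base composition differed in the same manner. The median GC content was 52.6% in siEXOSC3-only regions, 45.2% in siScramble-only regions and 47.9% over all merged regions. Among the 2795 regions of 60% GC or more, 59 (2.11%) were called only in siEXOSC3 and 3 (0.107%) only in siScramble. Below 40% GC, where 7126 regions lay, the counts were 10 (0.140%) and 53 (0.744%). The promoter shares still differed inside most GC bands. Between 45 and 50% GC, 29 of 101 siEXOSC3-only regions (28.7%) and 18 of 143 siScramble-only regions (12.6%) were at promoters, and between 50 and 55% GC the counts were 39 of 119 (32.8%) and 5 of 59 (8.47%). At 60% GC or more, 50 of 59 and 3 of 3 were at promoters, against 79.7% of all regions in that band.

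In shared regions, fold enrichment depended on GC content more steeply in the siEXOSC3 libraries. The slope of log2 fold enrichment on GC content, per 10 percentage points, was 0.31, 0.23 and 0.33 in the siEXOSC3 libraries and 0.07, 0.06 and 0.02 in the siScramble libraries. All 3 siEXOSC3 values lay above all 3 siScramble values, with a difference of 0.24 (exact permutation p = 0.1, the smallest this design allows; adjusted p = 0.133 over 4 such measures, which were chosen after the values of the regions were seen). Within promoters alone the slopes were 0.17 ± 0.04 and -0.06 ± 0.03, and within introns 0.17 ± 0.07 and 0.01 ± 0.02 (SD, n = 3; exact permutation p = 0.1 for each). The gap in median log2 fold between promoter and intron regions was 0.50 ± 0.11 in siEXOSC3 and 0.32 ± 0.08 in siScramble, and here the groups overlapped (exact permutation p = 0.2). Over the 7425 regions that the siDDX1 libraries also called, the slopes were 0.27 to 0.38 for siEXOSC3, 0.05 to 0.10 for siScramble and 0.19, 0.08 and 0.07 for siDDX1. GC content also affects how DNA is amplified and sequenced, and the part of library preparation in these slopes was not tested.

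**Figure D2:**
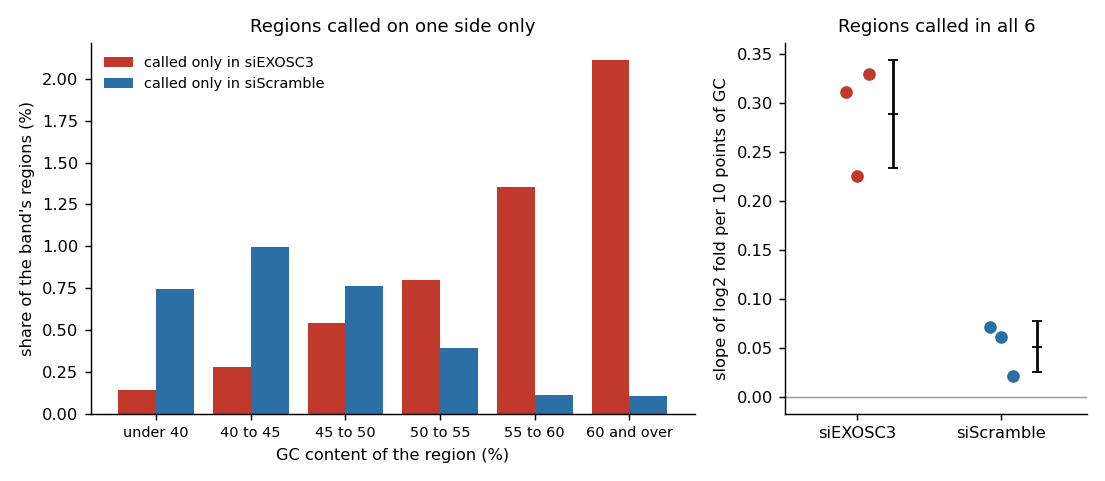
Left, share of the regions in each GC band (x axis, percent GC) that was called only in siEXOSC3 or only in siScramble (y axis, percent). Right, slope of log2 fold enrichment on GC content per 10 percentage points in regions called in all 6 libraries, with 1 point per library and the mean ± SD of 3 beside them. The 3 siEXOSC3 slopes lie between 0.23 and 0.33 and the 3 siScramble slopes between 0.02 and 0.07.

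The sequences below show this range of composition. Each is the plus strand of mm9 over 160 bases around the highest summit of a region, with runs of 3 or more G or of 3 or more C (GGG or CCC, the G-rich motif on either strand) in capitals. Nfkbia and Plxna1 were higher in siEXOSC3 and Hes7 was called only there. The intergenic region on chromosome 8 and Etv5 were lower in siEXOSC3, and Alk was called only in siScramble.
Nfkbia, chr12:56591485-56591644: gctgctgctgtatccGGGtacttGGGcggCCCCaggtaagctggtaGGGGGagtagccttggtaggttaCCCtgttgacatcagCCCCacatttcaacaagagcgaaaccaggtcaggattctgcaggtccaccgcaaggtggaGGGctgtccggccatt
Plxna1, chr6:89313376-89313535: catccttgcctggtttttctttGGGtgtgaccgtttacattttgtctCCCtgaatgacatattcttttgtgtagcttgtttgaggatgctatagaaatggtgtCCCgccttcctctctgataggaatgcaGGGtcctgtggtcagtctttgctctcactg
Hes7, chr11:68933604-68933763: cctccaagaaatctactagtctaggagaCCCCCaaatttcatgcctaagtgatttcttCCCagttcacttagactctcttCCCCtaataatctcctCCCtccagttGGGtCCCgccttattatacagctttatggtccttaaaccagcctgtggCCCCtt
Chromosome 8 intergenic, chr8:27315581-27315740: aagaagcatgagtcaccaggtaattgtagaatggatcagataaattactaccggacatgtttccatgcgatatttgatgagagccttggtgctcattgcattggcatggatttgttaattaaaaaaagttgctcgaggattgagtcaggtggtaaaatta
Etv5, chr16:22400353-22400512: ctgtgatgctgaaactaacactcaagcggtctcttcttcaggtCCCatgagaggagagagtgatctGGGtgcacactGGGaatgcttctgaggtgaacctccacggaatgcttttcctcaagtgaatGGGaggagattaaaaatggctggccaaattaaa
Alk, chr17:72229390-72229549: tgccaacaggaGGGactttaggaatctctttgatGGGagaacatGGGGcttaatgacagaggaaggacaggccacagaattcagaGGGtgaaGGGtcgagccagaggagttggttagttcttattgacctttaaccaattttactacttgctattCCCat
The Nfkbia window held 7 such runs at 58.8% GC, and the chromosome 8 window held none at 38.1% GC. Composition did not track every window, since the Alk window held 6 runs at 45.6% GC and the Plxna1 window 4 runs at the same GC content. At least 4 runs were present in 56.2% of all summit windows of this length, in 72.0% of those of siEXOSC3-only regions and in 44.3% of those of siScramble-only regions. A run of G or C in the sequence is a description and does not place a hybrid.

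Among regions called on one side, 6 of the 8 with the highest enrichment in siEXOSC3 were promoters. The promoter of Hes7, a transcriptional repressor of the segmentation clock, had folds of 8.70, 7.69 and 15.4 in the 3 siEXOSC3 libraries and no peak in siScramble. It was also called in all 3 siDDX1 libraries. The promoters of Rtkn and of Rapgef3, a cAMP-activated exchange factor for Rap, had folds of 7.34 to 10.1 and 6.86 to 9.08. The BC028777 promoter had folds of 6.73 to 13.3. A promoter region that overlaps Trp53i13 and lies 153 bases from the start of Abhd15 had folds of 6.43 to 8.56. An intergenic region lay 974 kb from Robo1, the nearest coding start, with folds of 6.21 to 9.65. A region over the 5S rRNA gene n-R5s142 (chr8:126133991-126134289, 71.6% GC) had folds of 9.32, 8.56 and 9.65, but 5S copies are near-identical and reads may be placed at the wrong one. No peak of an RNase H-digested library overlapped any of these 8 regions.

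The regions with the highest enrichment in siScramble alone were of another kind. Klrb1a, which encodes a natural killer cell receptor, had folds of 10.5, 10.6 and 9.31 over its start (chr6:128570359-128573339). This region, an intron of Gm6918 and an intergenic region 23.8 kb from Cables1 were also called in all 3 RNase H-digested libraries, so their signal resisted the digestion. The digested siEXOSC3 library is among these 3, so it had peaks at these regions although the untreated siEXOSC3 libraries had none. An intron of Eya4, a transcriptional coactivator and phosphatase, had folds of 9.47, 7.36 and 9.18 at 32.2% GC and was under a peak of 1 RNase H library. Folds of 7.03 to 9.29 were found at the start of the X-linked homeobox gene Rhox2h, and of 6.81 to 8.20 in an intron of Alk, a receptor tyrosine kinase gene of neuroblastoma. Over all one-sided regions, 13 siEXOSC3-only (3.13%) and 18 siScramble-only regions (4.46%) overlapped a peak of the siEXOSC3 or siScramble RNase H library, against 2.79% of all merged regions.

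Most one-sided regions were close to the limit of peak calling. The lowest summit pileup among the 3 calling libraries had a median of 7 reads in each class, and it reached 10 reads in 19 siEXOSC3-only and 34 siScramble-only regions. A region without a call may therefore hold a signal just under the threshold. The siDDX1 libraries, which took no part in choosing these regions, called 17 siEXOSC3-only and 51 siScramble-only regions in all 3 replicates (4.1% and 12.6%) and did not call 136 and 76 of them (32.8% and 18.8%) in any. Over all merged regions these shares were 17.1% and 46.1%, and 10.2% of the regions called in any 3 of the 6 libraries were called in all 3 siDDX1 replicates.

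Several long genes held more than one region of the same kind. Coding genes with a siScramble-only region had a median length of 50.4 kb, those with a siEXOSC3-only region 29.0 kb and those with any region 22.4 kb. Genes with many regions are more likely to hold a one-sided one, and the last median does not weigh genes by their regions. It is therefore not a like baseline for the others. Agap1, a GTPase-activating protein gene, and Snd1, which encodes a staphylococcal-nuclease-domain protein, each held 5 siScramble-only regions and no siEXOSC3-only region. Alk held 4 and Nrp2 held 3 siScramble-only regions. In all, Agap1 held 38 to 139 peaks per library and Snd1 12 to 76. The general shares were 0.631% siScramble-only and 0.648% siEXOSC3-only. The highest count was in Gm20388, an annotation of 4435 kb that spans many genes, with 7 siEXOSC3-only regions and 1 siScramble-only region. Hdac7, a class II histone deacetylase gene, and Lasp1, which encodes an actin-binding protein, each held 3 siEXOSC3-only regions and no siScramble-only region. These genes were picked for their counts after the values were seen, so the following lengths are a description without a test. Peaks covered 8.39, 17.4 and 26.1 kb of the 115 kb Nrp2 gene in the siEXOSC3 libraries and 37.1, 49.5 and 56.7 kb in the siScramble libraries, with no overlap between groups. In Hdac7 they covered 12.4, 14.4 and 18.8 kb in siEXOSC3 and 5.46, 7.69 and 8.63 kb in siScramble, again without overlap. The Alk values overlapped, at 1.67, 3.98 and 8.97 kb in siEXOSC3 and 5.39, 20.1 and 34.3 kb in siScramble. In Agap1 they also overlapped, at 22.1, 31.8 and 72.3 kb and 61.6, 109 and 157 kb. The Snd1 values, which did not overlap, were 7.26, 13.3 and 18.6 kb and 20.9, 45.8 and 70.0 kb.

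**Figure D3:**
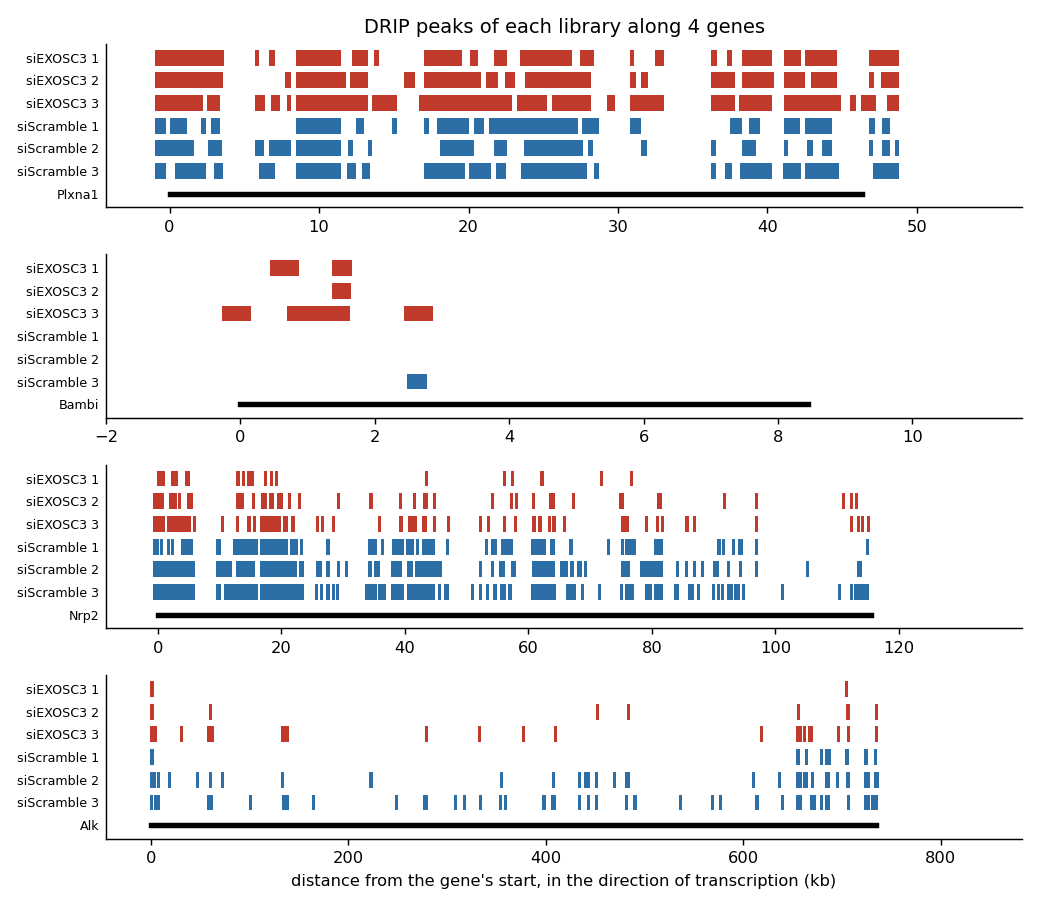
Peaks of each library (rows, 3 siEXOSC3 above 3 siScramble) along Plxna1, Bambi, Nrp2 and Alk. The x axis is the distance from the start of the gene in the direction of transcription (kb), and the black bar is the gene. Peaks cover more of Nrp2 in every siScramble library (37.1 to 56.7 kb) than in any siEXOSC3 library (8.39 to 26.1 kb), and the first peaks of Bambi are in siEXOSC3 libraries alone.

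Few shared regions passed the test for a change in strength. With 3 libraries per group, a region that did not pass may still differ. Of the 8994 regions called in all 6 libraries, 22 (0.245%) passed an adjusted p of 0.05 in limma, 10 higher in siEXOSC3 (0.111%) and 12 lower (0.133%). Their log2 changes were between 0.86 and 1.59 in size. At an unadjusted p of 0.05, 598 regions were higher and 646 lower, together 13.8% of those tested. In 18.7% of the 8994 regions the centred values of the groups did not overlap. These fits used log2 fold enrichment with each library centred on its median shared region. Without centring no region passed, with 543 at an unadjusted p of 0.05, and without siEXOSC3 replicate 1 or without siScramble replicate 3 the count was 2. The count was 5 without siScramble replicate 2, 8 without siScramble replicate 1 and 53 without siEXOSC3 replicate 2. The 22 regions are therefore those with the strongest evidence in this setting rather than a stable list. The intergenic region on chromosome 8 that leads the lower regions passed in 17 of 18 other settings.

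The higher region with the smallest adjusted p was intergenic, 985 kb from Acvr2a (chr2:47683738-47684755, 35.2% GC). Its folds were 42.1, 47.4 and 49.8 in siEXOSC3 and 17.4, 24.6 and 19.0 in siScramble, a log2 change of 1.12 ± 0.19 (SE; adjusted p = 0.00782, limma). It was under peaks in all 3 RNase H-digested libraries, so it resisted the digestion. Of the 10 higher regions 6 were at promoters, against 51.7% of all tested regions. Plxna1, a receptor for semaphorins in axon guidance, had folds of 19.3, 13.5 and 28.3 in siEXOSC3 and 6.44, 8.67 and 9.60 in siScramble over its start (chr6:89308950-89313602, 62.6% GC). Every siEXOSC3 value exceeded every siScramble value, and the log2 change was 1.17 ± 0.22 (SE; adjusted p = 0.0168, limma). Nfkbia encodes the NF-kappaB inhibitor IkB-alpha. Its region (chr12:56591220-56595326) had folds of 24.6, 22.1 and 25.9 in siEXOSC3 and 11.8, 11.1 and 9.85 in siScramble, a log2 change of 1.06 ± 0.22 (adjusted p = 0.0331, limma). The groups were again apart. Ahdc1, an AT-hook DNA-binding protein gene, had folds of 14.0, 14.3 and 21.2 against 6.01, 7.62 and 6.76 (log2 change 1.17 ± 0.21, adjusted p = 0.0119, limma). The starts of Klf3, a zinc-finger repressor, and of Midn beside the ATP synthase gene Atp5d rose by log2 0.93 ± 0.20 and 0.86 ± 0.19 (adjusted p = 0.0454 and 0.0481, limma).

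A further region over Ctdsp2, which encodes a phosphatase of the RNA polymerase II tail, holds the miRNA gene Mir26a-2 (chr10:126432078-126433605). Its folds were 11.9, 9.65 and 20.7 in siEXOSC3 and 4.80, 6.57 and 5.33 in siScramble, and the log2 change was 1.19 ± 0.23 (adjusted p = 0.0168, limma). The 2 mature sequences of this miRNA gene are shown for reference from RefSeq (GRCm38.p6), with the seed in capitals.
mmu-miR-26a-5p: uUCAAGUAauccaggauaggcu
mmu-miR-26a-2-3p: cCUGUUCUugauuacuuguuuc
The peak lists say nothing of the level of this miRNA. Exonic regions of Trim56, a ubiquitin ligase of innate immunity, and Zfp498, a zinc-finger gene, and an intron of Gm16163 also rose, by log2 1.01 to 1.10. At Gm16163 the summit pileups themselves overlapped, at 18, 17 and 24 reads in siEXOSC3 and 18, 13 and 15 in siScramble.

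The 12 lower regions comprised 5 intergenic, 2 intronic (4932443I19Rik and Gm20388), 1 exonic and 4 at promoters (33.3%, against 51.7% of all tested regions). The difference between higher and lower regions in position was not tested. The largest change was in an intergenic region 44.3 kb from the nearest coding start, that of Thap1 (chr8:27313021-27315824). Its folds were 8.20, 5.80 and 12.3 in siEXOSC3 and 20.5, 27.3 and 24.0 in siScramble, a log2 change of -1.59 ± 0.22 (adjusted p = 0.000409, limma). Another lay 16.4 kb from Trcg1 (chr9:57062993-57067963), with folds of 4.97, 6.73 and 5.15 against 14.1, 12.8 and 15.5 (log2 change -1.43 ± 0.24, adjusted p = 0.00782, limma). In both, all siEXOSC3 values were below all siScramble values. Nup155, a nuclear pore scaffold gene, had folds of 4.97, 6.12 and 6.41 against 9.95, 13.0 and 10.8 over its start (log2 change -1.03 ± 0.22, adjusted p = 0.0441, limma). Cstb, which encodes the protease inhibitor cystatin B, had folds of 11.2, 11.9 and 13.2 against 18.7, 25.9 and 21.0. Regions at Etv5, an ETS transcription factor gene, Aldh1l2, a mitochondrial folate enzyme gene, and Glipr1l1 fell by log2 0.98 to 1.04. An intergenic region 134 kb from Zfp352 (31.5% GC) also fell and was under peaks in all 3 RNase H-digested libraries.

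**Figure D4:**
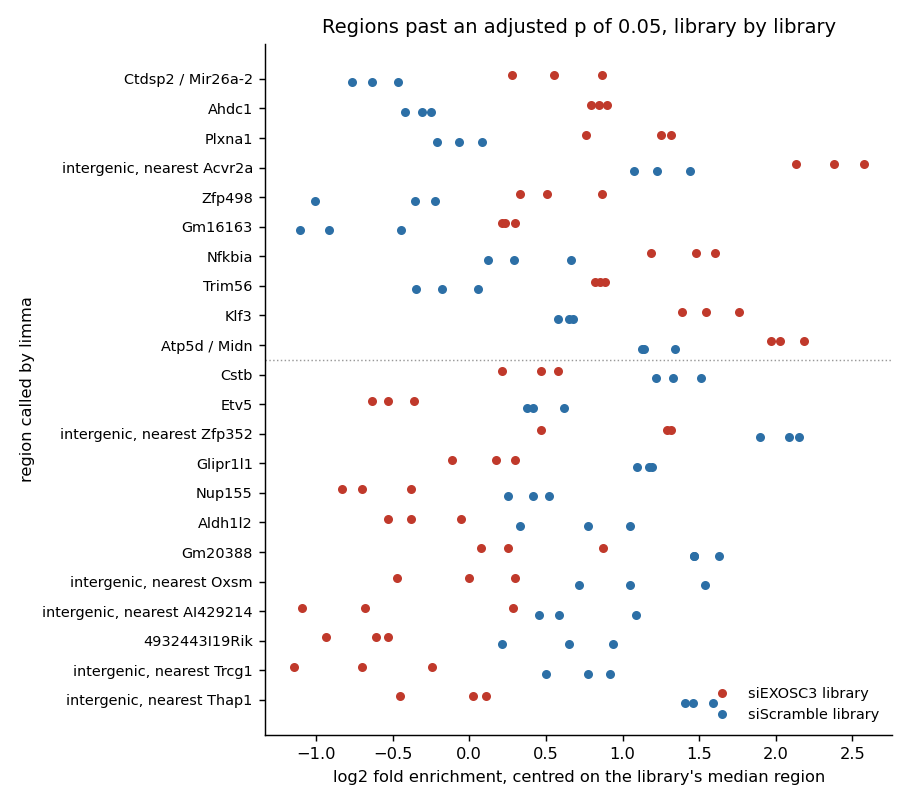
Centred log2 fold enrichment (x axis) of each library at the 22 regions past an adjusted p of 0.05 (rows, higher regions above the dotted line, lower regions below it). Each point is 1 library. The groups do not overlap in any of the 22 rows, which were chosen on these values.

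Over all shared regions the median log2 change was 0.05 at promoters, -0.07 in exons, -0.14 in introns and -0.10 in intergenic regions. By GC content it ran from -0.28 below 40% GC to 0.21 at 60% GC or more. Within a GC band the gap was narrower, with -0.23 at promoters and -0.19 in introns between 40 and 45% GC, and 0.07 and -0.06 between 50 and 55% GC. When each library was set to the same median in 20 bins of GC content, a correction added after these values were seen, the medians were 0.00089 at promoters and -0.04 in introns. In that fit 11 regions passed, of which 7 were among the 22. Ahdc1, Nfkbia, Plxna1, Klf3 and Midn did not pass there, with log2 differences of 0.95, 0.96, 0.93, 0.73 and 0.61 (adjusted p = 0.0632, 0.0752, 0.0854, 0.195 and 0.233, limma).

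Genes listed for axon guidance and projection held both directions. Of 68 listed genes, 37 had a region, and 79 of their regions were tested. One, at Plxna1, passed (higher), with 9 regions higher and 11 lower at an unadjusted p of 0.05 and a median of -0.10 against -0.02 over all tested regions. Over all 8994 tested regions 598 were higher and 646 lower at that p. The other 5 tested regions of Plxna1 had log2 differences of 0.03 to 0.66 and did not pass (adjusted p = 0.207 to 0.976, limma). Regions of Nrp2, which encodes a co-receptor of class 3 semaphorins and of VEGF, were on the other side. The lowest of these (chr1:62810248-62814365) had folds of 7.46, 4.89 and 7.08 in siEXOSC3 and 9.37, 13.6 and 12.1 in siScramble, a log2 difference of -0.94 ± 0.23 that did not pass (adjusted p = 0.0631, limma). The plexin genes Plxnb1 (promoter, 71.2% GC) and Plxnd1 each held a siEXOSC3-only region. Unc5b, Nrp2, Efna5, Ncam1, Mapt and Celf4 held 9 siScramble-only regions in all, out of 571 regions of the list. The list's siEXOSC3-only regions numbered 2. Over all merged regions the shares were 0.631% siScramble-only and 0.648% siEXOSC3-only.

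No shared region of the neuroblastoma identity genes passed. Of 22 tested regions 14 were above 0, against 4330 of 8994 over all tested regions. At an unadjusted p of 0.05, 3 were higher and 0 lower, against 598 and 646 over all. Phox2a, a homeobox gene of autonomic neurons (chr7:108969293-108983247), came nearest, with folds of 29.6, 33.0 and 51.5 in siEXOSC3 and 18.2, 23.1 and 18.4 in siScramble (log2 difference 0.82 ± 0.19, adjusted p = 0.0530, limma). The groups did not overlap. Gata2, a zinc-finger transcription factor gene, had a difference of 0.50 ± 0.21 (adjusted p = 0.290, limma) and also held a siEXOSC3-only intronic region. The list's 4 siScramble-only regions were all in Alk. Of its 132 regions 1 was siEXOSC3-only. The general shares were 0.631% siScramble-only and 0.648% siEXOSC3-only. The list's median was 0.08, and 0.01 after the GC correction, where 11 of 22 regions were below 0.

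Among genes of protein folding and stress none of 42 tested regions passed, with 12 lower and 0 higher at an unadjusted p of 0.05, and 30 of 42 were below 0 (median -0.13, and -0.12 after the GC correction). Over all tested regions 646 of 8994 were lower at that p and 4664 were below 0. Without centring 26 of 42 were below 0 and 4 were lower at that p, and after the GC correction 8 were. Their median GC content was 48.8%, against 50.8% over all tested regions. Ppp1r15a, which encodes a phosphatase subunit of the stress response, had folds of 18.0, 16.5 and 29.6 in siEXOSC3 and 27.8, 32.2 and 38.0 in siScramble (log2 difference -0.74 ± 0.19, adjusted p = 0.0869, limma). Hspa5, the main chaperone of the endoplasmic reticulum, had folds of 26.1, 29.8 and 53.7 against 37.3, 63.3 and 51.6 (-0.60 ± 0.19, adjusted p = 0.145, limma), so its ranges overlapped before centring. The transcription factor gene Xbp1 and the chaperonin gene Cct8 had differences of -0.62 ± 0.19 and -0.83 ± 0.24. Hsp90b1, Hspd1, Hspe1 and Pdia3, all chaperone or disulfide isomerase genes, held 4 siScramble-only regions among the 116 regions of the list. The list held 0 siEXOSC3-only regions. At the general shares of 0.631% siScramble-only and 0.648% siEXOSC3-only, fewer than 1 of each would be met.

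**Figure D5:**
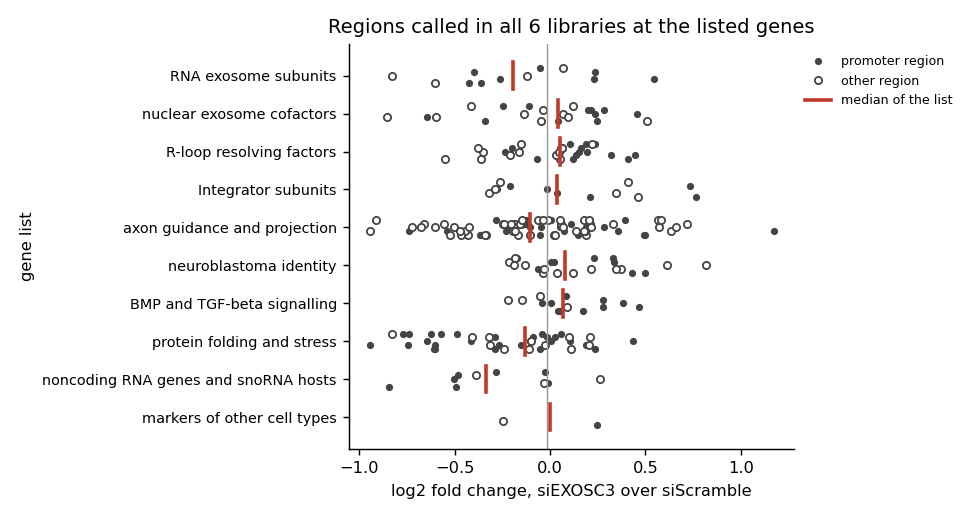
Log2 change, siEXOSC3 over siScramble (x axis), of the tested regions at the genes of each list (rows). Filled points are promoter regions, open points other regions, red bars the list medians and the grey line the median of all tested regions. The medians run from -0.33 (noncoding RNA genes and snoRNA hosts) to 0.08 (neuroblastoma identity).

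The exosome's own genes and its cofactors gave no passing region. Among 12 tested regions of exosome subunit genes, 1 was higher and 2 lower at an unadjusted p of 0.05. Over all 8994 tested regions 598 were higher and 646 lower at that p. Exosc1, a cap subunit gene (chr19:41992969-41998073), had folds of 7.46, 10.4 and 9.01 in siEXOSC3 and 13.5, 15.5 and 15.7 in siScramble (log2 difference -0.83 ± 0.23, adjusted p = 0.103, limma), without overlap. The promoter of Dis3l, a cytoplasmic nuclease of the exosome, and a region within 1 kb of Exosc5 were called only in siEXOSC3. Their folds were 4.62 to 4.97 and 4.23 to 5.34. These were 2 of the 46 regions of the list, which held 0 siScramble-only regions. Of 21 regions at listed cofactors, which include the cytoplasmic helicase gene Skiv2l, 2 were higher and 3 lower at an unadjusted p of 0.05. Introns of Zfc3h1, a subunit of the poly(A) tail exosome targeting complex, of the helicase gene Skiv2l2 and of Wdr61 were called only in siScramble. These were 3 of the 107 regions of the cofactor list, which held 0 siEXOSC3-only regions. The general shares were 0.648% siEXOSC3-only and 0.631% siScramble-only. The 10 tested regions of noncoding RNA genes and snoRNA hosts had a median of -0.33, with 4 lower and 0 higher at an unadjusted p of 0.05 and 9 of 10 below 0. Over all tested regions 4664 of 8994 were below 0. Without centring and after the GC correction alike, 6 of 10 were below 0 and 1 was lower at that p. Snhg1 was the lowest, with folds of 5.59, 7.95 and 7.11 against 8.79, 9.91 and 17.5 (log2 difference -0.84 ± 0.25, adjusted p = 0.121, limma). Of 141 regions over a snoRNA gene, 98 were called in all 6 libraries, against 14.0% of all merged regions. None was called on one side only, against 1.28% of all merged regions, a share that would give few among 141.

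Factors that remove R-loops showed little. Of 29 tested regions, 1, at the helicase gene Dhx9, was lower at an unadjusted p of 0.05, against 646 of 8994 over all tested regions. None passed. None of the list's 119 regions was called on one side, against 1.28% of all merged regions. The 3 tested regions of Ddx1 had log2 differences of 0.05, 0.03 and -0.16 (adjusted p = 0.823 to 0.970, limma). Of 13 Integrator regions, 2 were higher at an unadjusted p of 0.05, against 598 of 8994 over all tested regions, and none passed. Ints6, a subunit of the complex that ends transcription near promoters (chr14:63378234-63381200, 61.8% GC), had folds of 26.1, 25.1 and 28.3 in siEXOSC3 and 14.1, 16.9 and 13.3 in siScramble. The groups were apart, and the log2 difference was 0.77 ± 0.21 (adjusted p = 0.101, limma), or 0.52 ± 0.21 after the GC correction. At Cpsf3l, the catalytic Integrator subunit gene, the tested promoter regions went in opposite directions. The region chr4:155262838-155265935 had a difference of 0.74 ± 0.22 (adjusted p = 0.123, limma). The region chr4:155259042-155262228 had a difference of -0.28 ± 0.21 (adjusted p = 0.591, limma).

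Bambi, which encodes a decoy receptor of BMP and TGF-beta signalling, held a siEXOSC3-only region near its start (chr18:3508392-3509614) with folds of 4.97, 6.73 and 8.36. Smad6, an inhibitor of BMP signalling, and the promoter of Tgfb1 also held one each, at folds of 4.89 to 5.79 and 4.76 to 6.43. The list of BMP and TGF-beta genes held 116 regions in all, 3 of them siEXOSC3-only and 0 siScramble-only, and at the general shares of 0.648% and 0.631% fewer than 1 of each would be met. Its 14 tested regions had 0 passes and 0 at an unadjusted p of 0.05 in limma, against 1244 of 8994 at that p over all tested regions. Celf4, a regulator of RNA splicing in neurons, had a promoter region with folds of 6.21, 7.34 and 11.6 in siEXOSC3 and 5.27, 5.57 and 5.40 in siScramble (log2 difference 0.49 ± 0.23, adjusted p = 0.330, limma), and its intron held a siScramble-only region with folds of 5.27, 4.34 and 3.62.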

How the data were processed

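DRIP-seq peak lists of 6 libraries were analysed, with 3 RNase H-digested and 3 siDDX1 libraries beside them where named. Per the submitters' processing notes and the study's methods, the authors aligned reads to mm9 with Bowtie2 2.4.4 and called peaks for each library with MACS2 2.2.6 against an input library. The authors' notes also name SAMtools, DESeq2 and HOMER 4.11, and DESeq2 was not used here. The deposited fold enrichment is a linear ratio at the summit, and the deposited −log10 p-value and −log10 q-value come from the same peak caller. Read counts were not used here, so depth is known only through summit pileups. These were recovered as whole numbers for all peaks (tolerance 0.01 in −log10 p) from the fold and the −log10 p.

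Peaks that overlapped or touched were merged, and 1 base of overlap made a call. Changes in regions called in all 6 libraries were tested with limma 3.58.1 in R 4.3.3 on log2 fold enrichment of the strongest peak (lmFit, eBayes with trend, Benjamini-Hochberg over 8994 regions). No pseudocount was added beyond the one already in the deposited fold. Library values were compared by exact permutation over 20 assignments. Annotation was GENCODE vM1 on mm9, and sequences were read from the same build. Analyses ran in Python 3.11.15 with numpy 2.4.6, pandas 2.3.3, scipy 1.17.1, pysam 0.24.0 and matplotlib 3.10.9, and the fit was tested on simulated data.

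The members, gene lists and tests were chosen with earlier results of these data known. Named regions were the 8 of each one-sided class with the highest lowest fold, all regions past the adjusted p, listed genes (within 1 kb) with a one-sided or passing region, and Exosc3, Ddx1, Ints6, Celf4 and Bambi. Other listed genes were named for an unadjusted p under 0.05, and genes with several one-sided regions for their count, both after the values were seen. Some regions that these rules name are not reported here. Alternatives were joined peaks, stricter or equal peak numbers, removal of RNase H peaks, other scalings, the replicate block, calls that need 50% cover, leaving out each library and, added later, a GC correction.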

Additional observations from a re-analysis of the deposited data

How the results depend on the processing

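The count of 22 passing regions (10 higher, 12 lower) depended on the setting, and the cause was not tested. It was 0 (0 and 0) without centring, 35 (17 and 18) with quantile normalization, 7 (4 and 3) without a variance trend, 8 (3 and 5) with peaks up to 1000 bases apart joined, 36 (18 and 18) with equal numbers of peaks, 28 (15 and 13) at a −log10 q of at least 5, 10 (4 and 6) without RNase H peaks, 10 (6 and 4) with the mean fold of a region's peaks and 70 (51 and 19) on recovered pileups. With GC bins, added after the data were seen, it was 11 (7 and 4), or 26 (14 and 12) with the replicate block. Leaving out 1 library gave 2 to 53 passing regions, 0 to 29 of them higher and 2 to 24 lower. Same-numbered libraries deviated together at r = 0.06, -0.12 and 0.11, so the numbers were not taken to pair the samples. With the replicate block the count was 58 (28 higher and 30 lower), among them all 22. Of the 22, quantile normalization kept 22, recovered pileups 18, GC bins 7, no variance trend 7, joined peaks 7, mean fold 6 and no centring 0. Leaving out siEXOSC3 replicates 1, 2 and 3 kept 1, 16 and 11, and leaving out siScramble replicates 1, 2 and 3 kept 7, 4 and 2. A change of sign was met once, for Gm16163 with joined peaks (log2 difference -0.28).

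One-sided counts moved with the stringency of calling. They were 259 (siEXOSC3) and 244 (siScramble) with joined peaks and 226 and 213 at a −log10 q of at least 5, and leaving out 1 library gave 484 to 1338 and 566 to 2623. The lowest and highest came without siScramble replicate 1 and siEXOSC3 replicate 1 for siEXOSC3-only regions, and without siEXOSC3 replicate 1 and siScramble replicate 1 for siScramble-only regions. The promoter share of siEXOSC3-only regions stayed above that of siScramble-only regions in every setting run. It was 55.8% and 17.5% with 50% cover required, 48.6% with joined peaks and 58.4% at a −log10 q of at least 5 for siEXOSC3, and 16.0% with equal numbers of peaks for siScramble. Leaving out 1 library gave 30.5 to 43.8% and 12.8 to 15.6%. The difference in GC slope was 0.21 to 0.26 in every setting where it was computed. The exact permutation p was 0.1, or 0.25 with the replicate block, the smallest that block allows. It was not computed for no centring, quantile normalization, no variance trend, 50% cover or GC bins.

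Differences in library totals that did not separate the groups changed sign. Peak number differed by 20.3 at a −log10 q of at least 5 (main difference -1040), and leaving out 1 library gave differences of -6360 to 2784 in peak number, -8.90 to 1.39 Mb in covered length, -0.445 to 1.05 in median fold and -0.170 to 0.462 percentage points in RNase H overlap. Shallow summits limit what a missing call can show, and 3 libraries per group limit every exact test.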

Other observations

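Region ends often lay at enzyme cuts. At least 1 edge was on a cut site of 1 of the 5 enzymes in 82.3% of regions called in all 6 libraries, 61.7% of siEXOSC3-only regions and 58.4% of siScramble-only regions, against 59.0% of all merged regions. Both edges were on cuts in 35%, 4.34% and 7.43% of these classes. Long noncoding RNA genes were under 25 siEXOSC3-only regions (6.02%) and 8 siScramble-only regions (1.98%), against 4.52% of all merged regions.

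Summits within 1 kb of a coding start numbered 130 in siEXOSC3-only regions and 28 in siScramble-only regions. Of the 130, 70 (53.8%) lay upstream of the start, against 49.7% of such summits over all merged regions, so position around the start was close to that of regions in general. Observed over expected CpG had a median of 0.256 in siEXOSC3-only regions, 0.200 in siScramble-only regions and 0.221 over all merged regions.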
